A study of Mus musculus with 38 samples.

Results

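At TP3, 21 days after the last dose of chemotherapy, the omental tumours of 2 mouse models of high-grade serous ovarian cancer (HGSOC) held different tissue. The 3 HGS2 tumours held more RNA of dividing cells, of hypoxia and glycolysis and of a fibrillar collagen matrix, whereas the 60577 tumours held less mitotic RNA and more RNA of fat cells and of part of the complement genes. The comparison is of 7 treated tumours chosen by their labels, 3 of HGS2 (replicates 2, 3 and 4) and 4 of 60577 (replicates 1 to 4), out of 34 tumours and 38 libraries in the series. The remaining HGS2 tumour, replicate 1, is not among the tumours that the study describes and was used only as a check. HGS2 cells were grown in female C57BL/6J mice and 60577 cells in female FVB mice, in each case after injection into the peritoneal cavity, so each model is 1 cell line in 1 host strain. All 7 tumours came from mice given 3 doses of carboplatin (20 mg/kg) with paclitaxel (10 mg/kg), 7 days apart, the first on day 49 after injection in HGS2 and on day 21 in 60577. The HGS2 tumours were therefore collected on day 84 and the 60577 tumours on day 56, and model, strain and time since injection cannot be told apart in any difference between them. No control tumours of TP3 were among the samples. Those of TP2, 7 days after the last dose, stand beside the treated ones: 4 of HGS2 (day 70) and 3 of 60577 (day 42). According to the study's methods, control mice received vehicle, which held Koliphor EL and ethanol. Untreated below means given vehicle without the drugs. The study treated 60577 as the model that responds to this regimen and HGS2 as the one that responds little, and the comparison asks how the tissue that is left differs between them.

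The omentum is a fatty fold of the peritoneum and the usual first site of spread of HGSOC. Carboplatin crosslinks DNA and paclitaxel stabilises microtubules, and both act mainly on dividing cells. A tumour in the omentum replaces fat with cancer cells, fibroblasts and a matrix of fibrillar collagen, which the lysyl oxidases crosslink, and it contains macrophages and lymphocytes that also occupy the milky spots of the normal omentum. RNA of a whole tumour mixes all of these, and a gene list that is lower in one group can mean fewer cells of that type or less RNA per cell, which cannot be told apart here.

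Total counts ran from 26692958 to 49299442 in the HGS2 tumours and from 24196228 to 29011193 in the 60577 tumours, and HGS2 replicate 1 was the shallowest of all 34 tumours with 17839635. The 60577 tumours were alike: 1 minus Pearson's r of their log2 CPM (counts per 1000000 counts of a library, TMM-scaled) was 0.0138 to 0.021 between pairs. The HGS2 tumours were less alike, at 0.0643 to 0.121. Genes of the exocrine pancreas took 8.52% of the counts of HGS2 replicate 2 and at most 0.0675% in the other 6 tumours, led by Ctrb1 (1.39%) and Cela2a (1.24%), which encode digestive proteases. HGS2 replicate 3 stood apart in bone matrix genes. Ibsp, bone sialoprotein, was at 0, 1946 and 2.27 CPM in HGS2 replicates 2, 3 and 4 and at most 0.0971 CPM in 60577, and Dmp1, a matrix protein of osteocytes, was at 513 CPM in replicate 3 and at most 0.466 CPM in the other 6 tumours (both genes were picked out after their values were seen and were not tested). HGS2 replicate 1 shared this feature, with 1221 CPM of Ibsp and 373 CPM of Dmp1, and lay as far from the other HGS2 tumours (0.157 to 0.176) as from the 60577 tumours (0.162 to 0.169). Krt8, a keratin of epithelial cells, was listed at 0 in replicate 1, against 28.9, 18.5 and 33.3 CPM in HGS2 replicates 2, 3 and 4. With the acinar level as a covariate, 2919 genes were called at TP3, beside 2603 without it. The part of bone tissue in the results below was not tested. Where a count of list members moved by more than 1.5 times without a single tumour, the counts without it are mostly given beside it, and counts of 1 or 2 rest on as many genes.

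The models differed in 2603 of the 16241 genes tested, 2220 of them protein coding (edgeR quasi-likelihood test, called where the Benjamini-Hochberg adjusted p was under 0.05 and the log2 fold change exceeded 1 in either direction). Higher in HGS2 were 1405 genes, 8.65% of those tested, and 1198 genes, 7.38%, were lower. The groups did not overlap in CPM in 6602 genes, 40.7%. Over all genes the median log2 fold change, HGS2 minus 60577, was 0.015, so gene lists are set against these shares and this median. The mean distance between tumours of different models exceeded that between tumours of one model by 0.113 (0.153 against 0.0404), with p = 0.0286 in a one-sided exact permutation test over 35 divisions of the 7 tumours, the smallest p this design allows. With 1 tumour left out the difference lay between 0.098 and 0.131, where the smallest p that can be reached is 0.0667 or 0.1. The number of called genes was 3203 without HGS2 replicate 2 and 2185 without replicate 3, and 2273 with replicate 1 added.

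**Figure D1:**
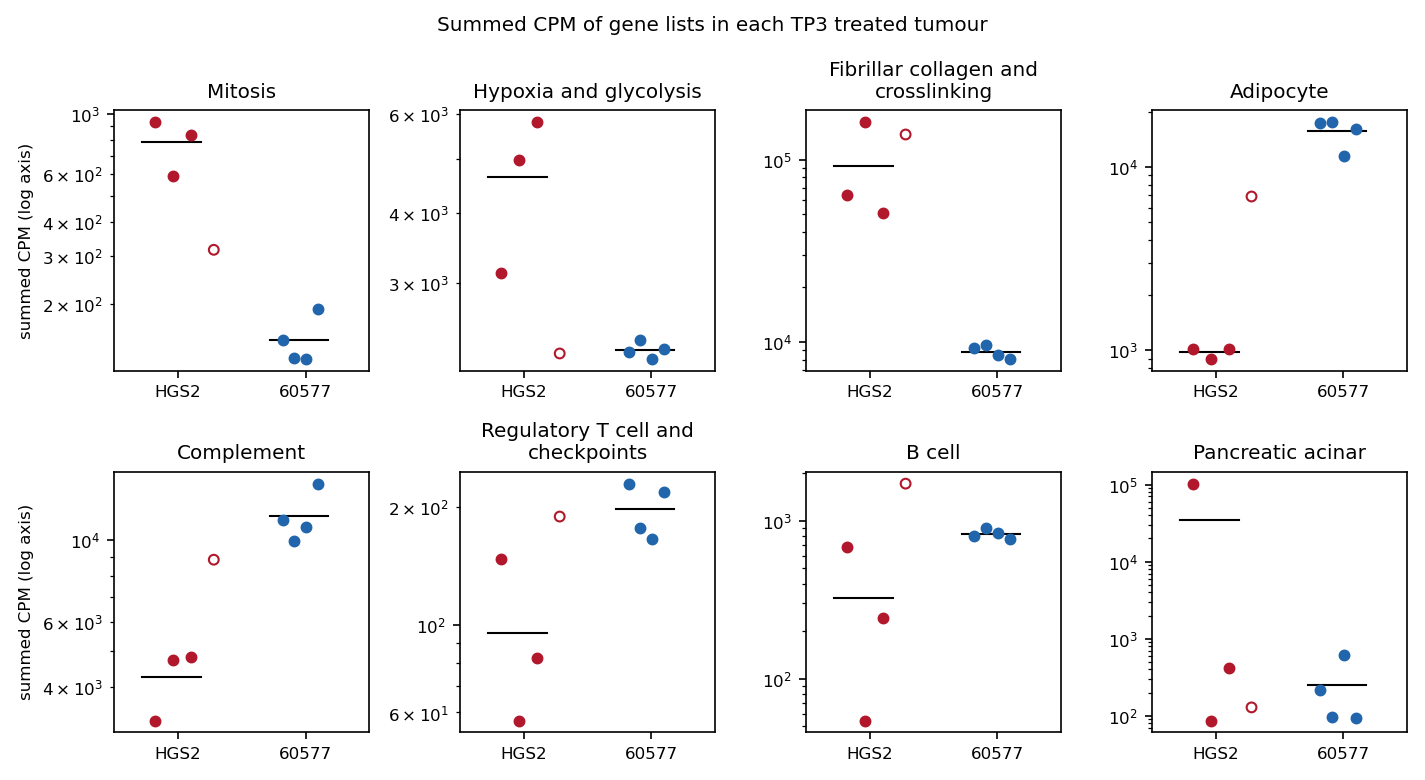
Summed CPM (TMM-scaled, log axes) of 8 gene lists in each treated tumour at TP3, with HGS2 in red, 60577 in blue, a line at the mean of HGS2 replicates 2 to 4 or of the 4 60577 tumours, and an open circle for HGS2 replicate 1, which is not in that mean. Mitosis, hypoxia and collagen sums lay higher in all 3 HGS2 tumours than in any 60577 tumour, adipocyte and complement sums lay lower, and the pancreatic acinar sum was high in replicate 2 only.

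Every gene of the mitosis list was higher in HGS2. All 18 tested members were called higher (background 8.65%), with a median log2 fold change of 2.56. No member's groups overlapped (over all genes 40.7% did not overlap). The summed level of the list was 930, 589 and 831 CPM in HGS2 replicates 2, 3 and 4 and 147, 127, 126 and 192 CPM in 60577 replicates 1 to 4, the order kept for all values below. Mki67 (ENSMUSG00000031004, chr7:135689784-135716361), the antigen by which dividing cells are stained, was at 266, 141 and 220 CPM in HGS2 and at 52.95, 42.7, 41.7 and 63.8 CPM in 60577. The lowest HGS2 tumour thus lay above the highest 60577 tumour, and the log2 fold change was 2.06 ± 0.33 (SE, edgeR adjusted p = 3.3e-05). Top2a, the topoisomerase that untangles chromosomes, was 160, 87.0 and 151 CPM against 26.3, 21.2, 20.8 and 29.7 CPM. That is a log2 fold change of 2.44 ± 0.37 (edgeR adjusted p = 2.2e-05), again without overlap. Kif20a, a kinesin of cell division, was higher by 3.18 ± 0.43 on the log2 scale (edgeR adjusted p = 4.2e-06), and Ccnb1, a cyclin that starts mitosis with Cdk1, by 2.84 ± 0.47 (edgeR adjusted p = 5.2e-05). The count stayed at 18 without any single tumour and with replicate 1 added, although replicate 1 itself had a lower sum (316 CPM) than the other HGS2 tumours.

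Genes of DNA replication differed less. Of 18 members tested, 9 were called higher and none lower, with a median of 1.09, and the sums were 805, 721 and 745 CPM in HGS2 and 369, 334, 393 and 431 CPM in 60577. Rrm2, the regulated subunit of ribonucleotide reductase, had the values 62.2, 47.5 and 44.1 CPM against 4.80, 3.36, 4.53 and 5.41 CPM. The groups lay far apart, with a log2 fold change of 3.50 ± 0.43 (edgeR adjusted p = 1.1e-06). Mcm6, a subunit of the helicase that opens the double strand, was higher by 1.68 ± 0.29 (edgeR adjusted p = 9.7e-05).

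Promoters of such genes commonly carry CCAAT boxes, bound by NF-Y, and the CHR element, through which the DREAM and MuvB complexes time expression in the cell cycle. In the 250 bases before the RefSeq start (GRCm38.p6), CCAAT on either strand (CCAAT or ATTGG) occurred in 14 of the 15 mitosis genes that had an entry (93.3%) and in 37.5% of all 27025 genes with one. The CHR letters TTTGAA or TTCAAA occurred in 7 of 15 (46.7%) and in 18.3% of all. A match is a description of the letters only, and neither motif overlaps the other. The promoters of Ccnb2, whose product is a cyclin of mitosis (chr9:70421555-70421804, minus strand), and of Cdk1, the kinase it activates (chr10:69352913-69353162, minus strand), are printed because both genes separated the models and hold both motifs, shown in capitals in the direction of transcription.
Ccnb2: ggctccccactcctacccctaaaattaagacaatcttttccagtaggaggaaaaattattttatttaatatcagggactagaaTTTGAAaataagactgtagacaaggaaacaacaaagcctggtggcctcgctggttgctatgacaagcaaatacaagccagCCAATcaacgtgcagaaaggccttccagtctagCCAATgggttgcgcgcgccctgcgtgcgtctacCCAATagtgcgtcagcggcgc
Cdk1: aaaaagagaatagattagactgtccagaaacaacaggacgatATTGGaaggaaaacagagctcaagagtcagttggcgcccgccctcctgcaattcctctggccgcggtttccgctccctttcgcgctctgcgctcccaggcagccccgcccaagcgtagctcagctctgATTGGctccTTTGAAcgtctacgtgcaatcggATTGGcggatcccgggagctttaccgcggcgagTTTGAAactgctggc
Ccnb2 had 22.4, 22.1 and 21.4 CPM in HGS2 and 1.98, 2.86, 2.04 and 4.99 CPM in 60577, and Cdk1 had 21.7, 20.3 and 21.5 CPM against 3.64, 3.10, 3.56 and 6.32 CPM. Both genes were nearly level among the HGS2 tumours and lay far below them in every 60577 tumour, with log2 fold changes of 2.88 ± 0.44 (edgeR adjusted p = 2.4e-05) and 2.35 ± 0.40 (edgeR adjusted p = 7.2e-05).

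Untreated tumours did not show this difference. In the TP2 controls none of the 18 mitosis genes was called higher in HGS2 and 1 was called lower, with a median of -0.08, and the sums were 923 ± 254 CPM in HGS2 (SD, n = 4) and 1077 ± 41.3 CPM in 60577 (SD, n = 3). For DNA replication 7 of 18 genes were lower in HGS2 controls and none higher, with 5 to 11 lower when single controls were left out. The difference between the models at TP3 minus that in the controls, tested in the same fit, was called positive for all 18 genes of each list, beside 5.87% of all genes (954) called positive and 6.54% (1062) called negative. The 2016 calls of this contrast became 1295 without the second 60577 control and 1351 with HGS2 replicate 1 added. It was 2.07 ± 0.45 for Mki67 (edgeR adjusted p = 0.0034), 2.67 ± 0.52 for Top2a (edgeR adjusted p = 0.0013) and 2.88 ± 0.41 for Mcm6 (edgeR adjusted p = 0.00013). Treatment and time are joined in this contrast, and it shares its TP3 tumours with the comparison above. By group, the mitosis sum in 60577 was 1198 ± 104 CPM in TP1 controls, 1077 ± 41.3 CPM in TP2 controls, and 334 ± 55.2, 259 ± 61.2 and 148 ± 31.1 CPM in treated tumours at TP1, TP2 and TP3 (SD, n = 3 or 4). In HGS2 the means of the 5 groups lay between 783 and 982 CPM, with replicate 1 of TP3 (316 CPM) left out.

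**Figure D2:**
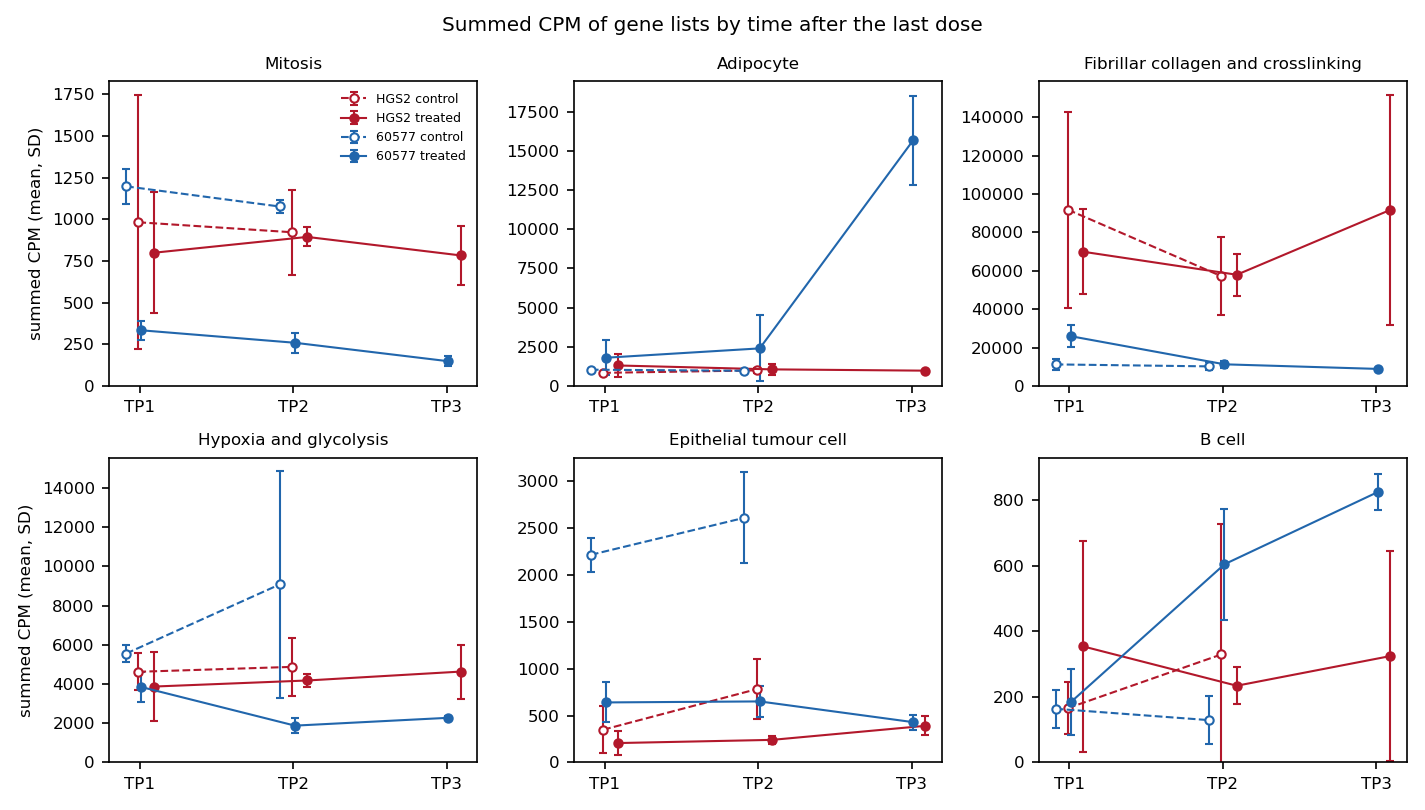
Mean summed CPM (linear axes from 0, bars are SD over tumours, lower ends under 0 are not drawn) of 6 gene lists by time after the last dose, where TP1, TP2 and TP3 are 1, 7 and 21 days, for control (open, dashed) and treated (filled) tumours of HGS2 (red) and 60577 (blue). HGS2 replicate 1 of TP3 is not in the means. Mitosis is lowest and the adipocyte list highest in treated 60577 tumours at TP3, whereas the HGS2 means at TP3 lie near those of the HGS2 controls for both.

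Genes of hypoxia and glycolysis were also higher in HGS2. Cells short of oxygen stabilise HIF transcription factors, which raise glucose uptake, glycolysis and angiogenic signals. Of 19 members tested 11 were called higher and none lower (median 1.30), and the sums were 3124, 4971 and 5810 CPM in HGS2 and 2254, 2371, 2192 and 2289 CPM in 60577. Every HGS2 tumour had a larger sum than every 60577 tumour, but HGS2 replicate 1 did not (2243 CPM). HIF binds the core ACGTG, and these letters or CACGT were found in 12 of 17 members' promoters of 250 bases (70.6%) and in 18.5% of all 27025. The promoters of Pgk1, which encodes a glycolytic kinase (chrX:106186850-106187099, plus strand), and of Car9, the carbonic anhydrase used as a marker of hypoxia (chr4:43506776-43507025, plus strand), are printed with the core in capitals because both genes were called.
Pgk1: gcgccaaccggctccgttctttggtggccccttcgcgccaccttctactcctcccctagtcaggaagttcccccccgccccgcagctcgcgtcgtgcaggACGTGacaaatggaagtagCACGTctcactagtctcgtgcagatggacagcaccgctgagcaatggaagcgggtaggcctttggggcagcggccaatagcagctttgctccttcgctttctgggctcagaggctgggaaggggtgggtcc
Car9: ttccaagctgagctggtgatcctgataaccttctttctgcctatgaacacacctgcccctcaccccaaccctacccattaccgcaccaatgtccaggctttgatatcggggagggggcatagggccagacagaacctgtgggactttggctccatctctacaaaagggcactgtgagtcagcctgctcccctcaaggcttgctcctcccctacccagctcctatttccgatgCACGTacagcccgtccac
Pgk1 was at 230, 437 and 455 CPM in HGS2 and at 71.1, 76.9, 72.1 and 79.0 CPM in 60577. The 60577 tumours were within a narrow range and HGS2 replicate 2 was the lowest of its group, still above all of them (log2 fold change 2.32 ± 0.40, edgeR adjusted p = 7.7e-05). Car9 was at 12.1, 7.64 and 21.5 CPM against 2.27, 1.40, 3.62 and 2.15 CPM, without overlap, with a log2 fold change of 2.54 ± 0.60 (edgeR adjusted p = 0.0022). Vegfa, the main angiogenic growth factor, was higher by 1.59 ± 0.39 (edgeR adjusted p = 0.0026). Slc16a3, the lactate exporter of glycolytic cells, is not on this list and was higher by 2.72 ± 0.32 (edgeR adjusted p = 7e-07). Bnip3, a mitophagy receptor on the same list, was at 24.8, 55.8 and 77.5 CPM against 89.1, 90.9, 90.2 and 67.1 CPM and was not called. The number called higher was 14 without HGS2 replicate 2, 7 without replicate 4 and 8 with replicate 1 added.

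In untreated tumours the list was not higher in HGS2. None of its genes was higher and 5 were lower in HGS2 controls (median -0.84), with sums of 3951, 3339, 6572 and 5636 CPM in HGS2 and 6079, 15750 and 5410 CPM in 60577. The second 60577 control was far above the others, and without it none was lower, whereas 11 were lower without the third 60577 control. The sums of TP1 controls were 4625 ± 948 CPM in HGS2 and 5556 ± 416 CPM in 60577 (SD, n = 3 each). The difference at TP3 minus that in TP2 controls was called positive for 14 of 19 genes and negative for 1 (median 2.32), and positive for 10 without the second 60577 control. It was 4.26 ± 0.83 for Car9 (edgeR adjusted p = 0.0013), 3.16 ± 0.55 for Pgk1 (edgeR adjusted p = 0.00064) and 2.85 ± 0.54 for Vegfa (edgeR adjusted p = 0.0012), and without that control it was 3.77, 2.39 and 2.05, each still called.

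Fibrillar collagen RNA was far more abundant in HGS2. Col1a1 alone took 1.73%, 7.99% and 2.03% of all counts in HGS2 replicates 2, 3 and 4 and 0.215%, 0.228%, 0.19% and 0.177% in the 60577 tumours. Of the 22 genes for fibrillar collagens and their crosslinking and processing enzymes, 16 were called higher and none lower (median 2.08), and the sums were 64215, 160308 and 50708 CPM against 9259, 9673, 8454 and 8054 CPM. Col1a1 (ENSMUSG00000001506), the main chain of type I collagen, had 20801, 90929 and 20143 CPM in HGS2 and 1877, 1993, 1705 and 1553 CPM in 60577. HGS2 replicate 3 was far above the other HGS2 tumours, and even the lowest of them was well above every 60577 tumour, with a log2 fold change of 4.62 ± 0.53 (edgeR adjusted p = 4.5e-07), or 3.52 without replicate 3 (edgeR adjusted p = 3.9e-06). Col3a1, of type III collagen, did not share the peak in replicate 3, with 20461, 6882 and 10954 CPM against 3642, 3386, 3130 and 2952 CPM, and was higher by 1.96 ± 0.35 (edgeR adjusted p = 0.00015). Col5a1, which starts fibril assembly, was higher by 2.32 ± 0.26 (edgeR adjusted p = 2.5e-07). Col11a1, a minor fibrillar chain found in activated fibroblasts of many carcinomas, was at 132, 397 and 268 CPM against 0.721, 1.03, 1.07 and 0.333 CPM, a log2 fold change of 8.39 ± 0.83 (edgeR adjusted p = 4.4e-08).

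Lysyl oxidases oxidise lysines of collagen and elastin and so allow crosslinks to form. Lox, which the study chose as a target, was at 615, 887 and 1565 CPM in HGS2 and at 89.0, 153, 100 and 62.0 CPM in 60577. All HGS2 tumours lay above all 60577 tumours, with HGS2 replicate 4 the highest, and the log2 fold change was 3.34 ± 0.38 (edgeR adjusted p = 3.2e-07). Loxl2 (ENSMUSG00000034205, chr14:69609068-69695834), a related enzyme also targeted by the study, was at 389, 567 and 1031 CPM against 106, 185, 94.0 and 87.1 CPM, higher by 2.49 ± 0.40 (edgeR adjusted p = 4.1e-05). Loxl3 was higher by 0.81 ± 0.26 (edgeR adjusted p = 0.022), which is under the fold threshold. The calls of Col11a2, a chain of cartilage collagen, and of Loxl4 rested on HGS2 replicate 3. Col11a2 was at 4.97, 1619 and 2.90 CPM against 4.73, 4.23, 3.82 and 3.72 CPM, and its log2 fold change of 7.04 became -0.07 without that tumour (edgeR adjusted p = 0.971). For Loxl4 the change of 2.77 became -0.20 (edgeR adjusted p = 0.884), from 1.82, 73.5 and 5.02 CPM against 3.97, 3.30, 3.69 and 4.81 CPM. Of the 22 genes 13 were called without replicate 3, and 16 with replicate 1 added.

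**Figure D3:**
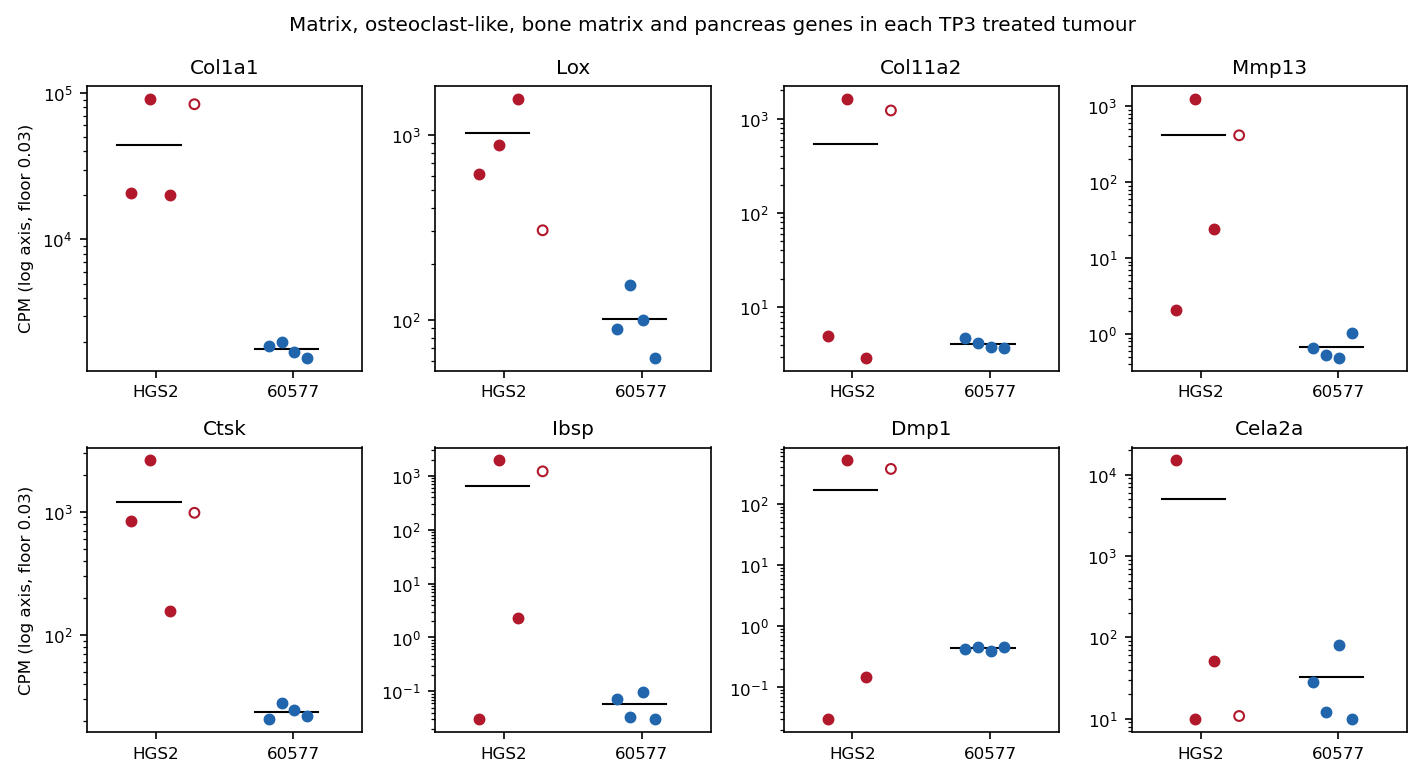
CPM (TMM-scaled, log axes, values under 0.03 drawn at 0.03) of 8 genes in each treated tumour at TP3, with HGS2 in red, 60577 in blue, lines at the group means and an open circle for HGS2 replicate 1, outside the mean. Col1a1, Lox and Ctsk were higher in every HGS2 tumour than in any 60577 tumour, whereas Col11a2, Ibsp and Dmp1 were high in HGS2 replicates 3 and 1 and Cela2a in HGS2 replicate 2.

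Untreated tumours already differed in this respect. In the controls 12 of the 22 collagen genes were higher in HGS2 and none lower (median 1.29), beside 9.40% of all genes (1527) called higher and 6.94% (1127) called lower there, with a median over all genes of 0.031. The sums were 57185 ± 20265 CPM in HGS2 and 10183 ± 2068 CPM in 60577 controls. Col1a1 was higher in HGS2 controls by 2.93 ± 0.54 (edgeR adjusted p = 0.0002) and Lox by 1.87 ± 0.38 (edgeR adjusted p = 0.00058). The difference at TP3 minus that in controls was called positive for 5 of the 22 genes (2 without HGS2 replicate 3) and negative for none. For Col1a1 it was 1.70 ± 0.68 (edgeR adjusted p = 0.082). Leaving out single treated HGS2 tumours gave 2.03 without replicate 2 and 2.04 without replicate 4, which passed, and 0.60 without replicate 3 (edgeR adjusted p = 0.565). For Lox it was 1.47 ± 0.51 (edgeR adjusted p = 0.043). Under the 14 single omissions it lay between 1.03 and 1.75, and 11 of them ended the call. Over all genes, 565 were called higher in HGS2 both at TP3 and in controls, 40.2% of the TP3 calls and 37% of the control calls, and 439 were lower in both (36.6% and 39%), while 40 and 34 of the TP3 calls were called in the opposite direction in controls. These comparisons have no tumour in common.

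Other matrix genes followed in part. Of 23 glycoproteins and proteoglycans 12 were called higher and 3 lower (median 1.17), and in controls 12 were higher and none lower. Without HGS2 replicate 2, or without replicate 3, 1 was lower at TP3. Sparc, a collagen-binding protein, was at 5215, 14107 and 6962 CPM in HGS2 and at 1193, 1437, 1131 and 1024 CPM in 60577, higher by 2.87 ± 0.33 (edgeR adjusted p = 3.6e-07). Tnc, the tenascin of wounds and tumour stroma, was higher by 3.23 ± 0.61 (edgeR adjusted p = 0.00024), Postn, periostin, by 2.78 ± 0.59 (edgeR adjusted p = 0.00085), and Vcan, the proteoglycan versican, by 1.99 ± 0.36 (edgeR adjusted p = 0.00016). Fn1, fibronectin, was at 4350, 4226 and 9564 CPM against 3987, 4231, 3640 and 4764 CPM, so the groups overlapped, and its log2 difference of 0.54 ± 0.31 did not pass (edgeR adjusted p = 0.19). Tnxb, a tenascin of loose connective tissue, went the other way, with 140, 11.4 and 44.3 CPM against 982, 854, 623 and 1102 CPM, lower by 3.77 ± 0.97 on the log2 scale (edgeR adjusted p = 0.0042).

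Of 17 fibroblast genes 7 were higher and 1 lower at TP3 (median 0.68), and 13 were higher in controls (median 2.39). The difference at TP3 minus that in controls was called negative for 4 (1 without the second 60577 control) and positive for none. Fap, a surface protease of activated fibroblasts, was at 23.9, 176 and 16.9 CPM in HGS2 and at 7.90, 8.39, 9.29 and 6.65 CPM in 60577 (log2 fold change 3.17 ± 0.57, edgeR adjusted p = 0.00014), and its change was 1.34 without HGS2 replicate 3 (edgeR adjusted p = 0.0259). Cxcl12, the chemokine of stromal cells, was higher by 1.19 ± 0.34 (edgeR adjusted p = 0.0091), and by 0.79 without HGS2 replicate 2 (edgeR adjusted p = 0.0903). Pdgfra, the receptor that marks most fibroblasts, was at 111, 202 and 159 CPM against 248, 176, 248 and 218 CPM and was not called, and the 2 ranges overlapped. Dpt, dermatopontin, a gene of resting fibroblasts, was at 198, 60.2 and 343 CPM against 296, 298, 226 and 346 CPM, whereas its means in controls were 200 CPM in HGS2 and 11.2 CPM in 60577. Its difference at TP3 minus that in controls was -4.70 ± 1.04 (edgeR adjusted p = 0.0037).

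Among 22 proteases and inhibitors 8 were higher and 2 lower (median 1.03), with 4 lower without HGS2 replicate 4. Timp1, an inhibitor of metalloproteinases, was at 89.0, 151 and 92.2 CPM in HGS2 and at 11.5, 15.1, 13.1 and 11.3 CPM in 60577. The groups were well apart (log2 fold change 3.12 ± 0.57, edgeR adjusted p = 0.00017), and the difference was larger than in controls by 3.22 ± 0.77 (edgeR adjusted p = 0.0062), or 2.28 without the second 60577 control (edgeR adjusted p = 0.0482). Mmp13, a collagenase, was at 2.07, 1244 and 24.5 CPM against 0.649, 0.533, 0.485 and 1.03 CPM, so HGS2 replicate 3 held nearly all of it, and its log2 fold change of 9.28 was 4.29 without that tumour (edgeR adjusted p = 0.0171). Mmp12, the elastase of macrophages, was lower in HGS2, with 0.704, 3.05 and 1.38 CPM against 21.9, 62.1, 34.3 and 38.9 CPM (log2 fold change -4.48 ± 1.03, edgeR adjusted p = 0.0017). Of 14 integrins 3 were higher and 1 lower, but 1 was higher without HGS2 replicate 4 and none was lower without any one of the 3 HGS2 tumours. Itgb3, the beta subunit of the vitronectin receptor, was higher by 2.55 ± 0.38 (edgeR adjusted p = 1.6e-05). Of 20 basement membrane genes 2 were higher and 3 lower (1 lower without HGS2 replicate 3), and of 15 genes of TGF-beta signalling none was higher and 1 was lower.

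Genes of lipid-associated and osteoclast-like myeloid cells changed in both directions. Osteoclasts are fused macrophages that dissolve bone by acid and proteases, and similar giant cells occur in some tumours. Of 15 lipid-associated and osteoclast-like genes tested 8 were called higher and 4 lower (median 2.55), and the sums were 3056, 9602 and 1341 CPM in HGS2 and 2000, 2152, 1834 and 1782 CPM in 60577. The sum of HGS2 replicate 4 lay below all 60577 tumours. The 4 lower members were Lpl, a lipase of fat cells and macrophages, at 138, 201 and 266 CPM against 1078, 1036, 900 and 890 CPM (log2 fold change -2.28 ± 0.42, edgeR adjusted p = 0.00022), Cd36, a fatty acid receptor, lower by 4.83 ± 0.97 (edgeR adjusted p = 0.00049), Gpnmb, a glycoprotein of lipid-laden macrophages, and Fabp5, a fatty acid carrier. The last pair lay near the threshold, Gpnmb lower by 2.53 ± 0.89 (edgeR adjusted p = 0.032) and Fabp5 by 1.00 ± 0.37 (edgeR adjusted p = 0.043), and single omissions ended the call of Gpnmb in 4 of 7 cases and that of Fabp5 in 5 of 7. Lpl and Cd36 are also on the adipocyte list and are counted there again. Ctsk, the collagen-degrading cathepsin of osteoclasts, was at 846, 2610 and 157 CPM against 20.6, 27.9, 24.6 and 21.8 CPM. Each HGS2 tumour was above all 60577 tumours, with replicate 3 the highest and replicate 4 the lowest of the 3 (log2 fold change 5.67 ± 1.02, edgeR adjusted p = 0.00015, and 4.41 without replicate 3). Ocstamp, needed for osteoclast fusion, was at 28.2, 25.7 and 3.64 CPM against 0.0721, 0.0333, 0.129 and 0.181 CPM, and Siglec15, a receptor of osteoclast precursors, at 5.80, 17.3 and 1.23 CPM against at most 0.2 CPM, and both were called. Spp1, osteopontin, which macrophages, tumour cells and bone cells all make, was at 161, 1842 and 267 CPM against 9.02, 9.52, 9.16 and 6.44 CPM (log2 fold change 6.47 ± 1.09, edgeR adjusted p = 7.1e-05, and 4.65 without replicate 3). Its difference in controls was -0.97 ± 0.91 (edgeR adjusted p = 0.44), and the change between the comparisons was 7.45 ± 1.37 (edgeR adjusted p = 0.001), or 5.62 without replicate 3 (edgeR adjusted p = 0.0056).

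Ctsk, Siglec15, Spp1 and Acp5 were highest in HGS2 replicate 3, the tumour with bone matrix RNA, whereas Ocstamp was highest in replicate 2 and Lpl in replicate 4. Of the 15 genes 4 were called higher and 2 lower without replicate 3. Acp5, the acid phosphatase by which osteoclasts are stained, then had a log2 fold change of 1.49 (edgeR adjusted p = 0.175) in place of 3.06 ± 0.80 (edgeR adjusted p = 0.0048), and Mmp9, a gelatinase of osteoclasts and neutrophils, one of 3.10 (edgeR adjusted p = 0.068) in place of 4.01 ± 1.18 (edgeR adjusted p = 0.011). Bone matrix genes were at or near 0 in HGS2 replicates 2 and 4, where Ctsk was at 846 and 157 CPM. In controls 6 of the 15 genes were higher in HGS2 (1 without the third HGS2 control) and none lower, Ctsk by 4.03 ± 1.05 (edgeR adjusted p = 0.0048).

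Fat cell genes separated the models in the other direction. Of 21 adipocyte genes tested none was higher and 20 were lower in HGS2 (background 7.38%), with a median log2 fold change of -4.82, and the sums were 1012, 895 and 1015 CPM in HGS2 and 17434, 17570, 11531 and 16211 CPM in 60577. Scd1 (ENSMUSG00000037071, chr19:44394455-44407879), the desaturase that makes oleate, was at 113, 154 and 181 CPM in HGS2 and at 6960, 7652, 3812 and 7622 CPM in 60577. The lowest 60577 tumour lay far above the highest HGS2 tumour, and the log2 fold change was -5.45 ± 0.81 (edgeR adjusted p = 1.5e-05). Fasn, fatty acid synthase, was at 277, 263 and 244 CPM against 3403, 2826, 1963 and 3192 CPM, lower by 3.44 ± 0.30 on the log2 scale (edgeR adjusted p = 5.6e-09). Pparg, the transcription factor of fat cells, was lower by 3.01 ± 0.44 (edgeR adjusted p = 1.4e-05), Fabp4, their fatty acid carrier, by 4.73 ± 1.02 (edgeR adjusted p = 0.00091), and Dgat2, which completes triglycerides, by 6.01 ± 0.95 (edgeR adjusted p = 3.4e-05).

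The hormones that only fat cells secrete in quantity followed. Lep, leptin, was at 1.28, 0.0231 and 1.56 CPM in HGS2 and at 104, 151, 81.3 and 58.9 CPM in 60577 (log2 fold change -6.74 ± 1.65, edgeR adjusted p = 0.0029). Adipoq, adiponectin, was at 12.8, 1.78 and 5.43 CPM against 395, 397, 338 and 272 CPM (log2 fold change -5.73 ± 1.66, edgeR adjusted p = 0.01). Without HGS2 replicate 3, in which it was lowest, its adjusted p was 0.0546 with a change of -5.26. Cfd, the protease adipsin, was at 103, 19.2 and 39.8 CPM against 825, 874, 871 and 667 CPM, and was the tested member not called (edgeR adjusted p = 0.11). Without replicate 3 the list had 15 lower calls, and with replicate 1 added 14, and replicate 1 had an adipocyte sum of 6902 CPM, between the groups. Among the 10 genes with the largest lower calls were Nnat, Npr3, Thrsp, Aqp7 and Tshr. Thrsp, a lipogenic protein, was at 2.49, 0.416 and 0.186 CPM against 141, 184, 121 and 158 CPM. Npr3, the clearance receptor for natriuretic peptides, was at 1.91, 0.508 and 1.75 CPM against 329, 372, 228 and 176 CPM, and Hal, histidine ammonia-lyase, at 0.207, 0.0231 and 0.483 CPM against 87.0, 64.8, 55.0 and 58.5 CPM. Hal was already lower in HGS2 controls, by 5.29 ± 0.69 on the log2 scale (edgeR adjusted p = 2.1e-06).

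In controls no adipocyte gene was called in either direction (median 0.74), and the sums were 991 ± 162 CPM in HGS2 and 968 ± 52.8 CPM in 60577. The difference at TP3 minus that in controls was called negative for all 21 genes (median -6.14), and for 11 with HGS2 replicate 1 added. It was -6.13 ± 1.01 for Scd1 (edgeR adjusted p = 0.00039), -9.11 ± 2.31 for Adipoq (edgeR adjusted p = 0.0085), -8.91 ± 2.29 for Lep (edgeR adjusted p = 0.0092), -9.37 ± 2.11 for Thrsp (edgeR adjusted p = 0.0041) and -9.14 ± 2.01 for Nnat, a proteolipid (edgeR adjusted p = 0.0036). In treated 60577 tumours the sum was 1801 ± 1114 CPM at TP1, 2396 ± 2109 CPM at TP2 and 15686 ± 2837 CPM at TP3 (SD, n = 3 or 4). The HGS2 group means lay between 834 and 1304 CPM throughout, with replicate 1 of TP3 (6902 CPM) left out.

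**Figure D4:**
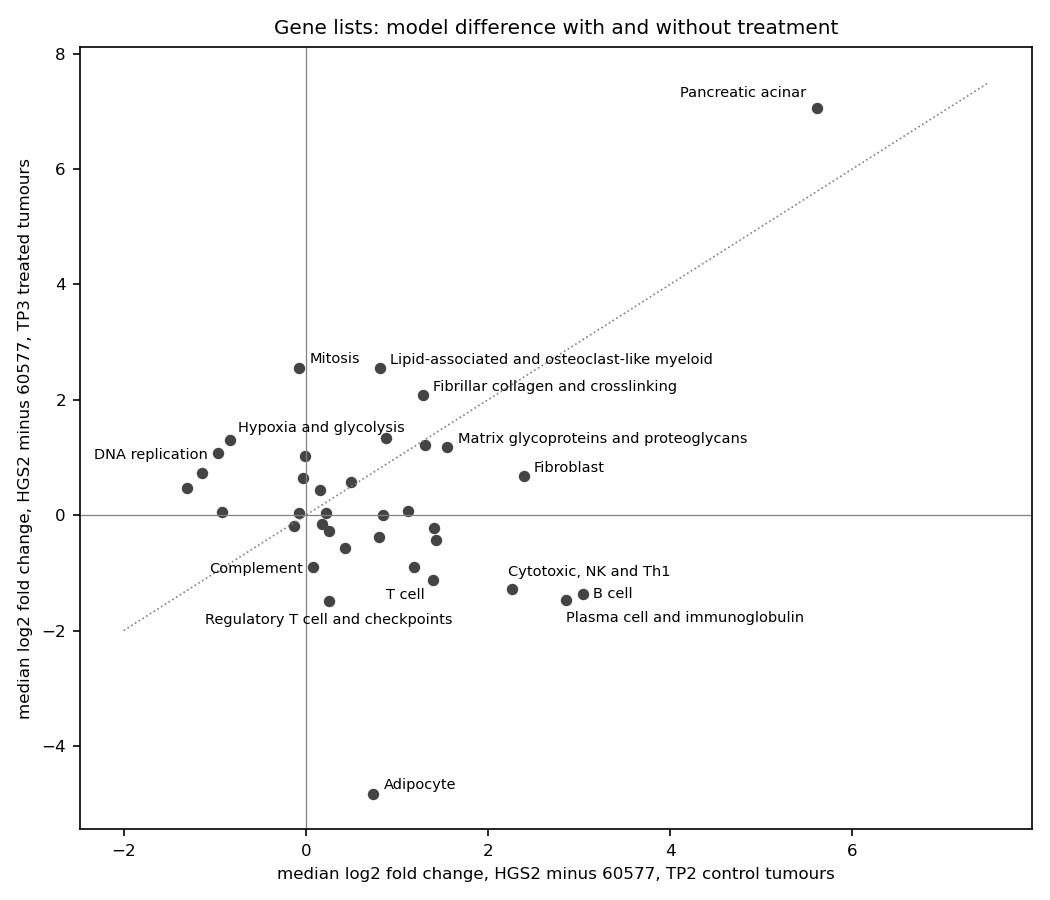
Median log2 fold change (HGS2 minus 60577) of the tested genes of each of 36 gene lists in treated tumours at TP3 (vertical) against TP2 controls (horizontal), 1 point a list, with the line of equal values dotted. Mitosis lies at 2.56 against -0.08 and the adipocyte list at -4.82 against 0.74, whereas the collagen list is above 0 on both axes.

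Part of the complement genes were lower in HGS2. Complement is a cascade of plasma proteins that marks and lyses targets, made by liver and also by macrophages, fibroblasts and fat cells. Of 17 members none was higher, 6 were lower and 11 did not pass (median -0.90), and the sums were 3233, 4714 and 4815 CPM in HGS2 and 11321, 9966, 10845 and 14227 CPM in 60577. C3, the central component, was at 1355, 2380 and 2696 CPM against 6659, 5563, 6292 and 8877 CPM, without overlap (log2 fold change -1.68 ± 0.43, edgeR adjusted p = 0.0041). C4b, which acts before C3, was at 500, 77.3 and 252 CPM against 1557, 1430, 1378 and 1930 CPM (log2 fold change -2.51 ± 0.50, edgeR adjusted p = 0.00048), and C2, its partner protease, was lower by 1.24 ± 0.31 (edgeR adjusted p = 0.0037). With replicate 1 added 4 were lower. In controls 3 members were higher in HGS2, none of them without the second 60577 control, and none was lower (median 0.08), although the sum was lower in HGS2 there too, at 4466 ± 939 CPM against 6942 ± 519 CPM in 60577 (SD, n = 4 and 3). The change between the comparisons was called negative for 3 (5 without the second HGS2 control, 1 with HGS2 replicate 1 added), C4b among them (-2.32 ± 0.67, edgeR adjusted p = 0.018). Replicate 1 had a complement sum of 8842 CPM, above the other HGS2 tumours.

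Macrophage genes differed little as a list: of 16 members none was higher and 2 were lower (median 0.07), with sums of 2408, 4411 and 4504 CPM against 4418, 4255, 4408 and 4728 CPM. Csf1r, the receptor on which macrophages depend, was at 359, 705 and 537 CPM against 437, 408, 414 and 458 CPM, and the groups overlapped. Timd4, a receptor of resident peritoneal and omental macrophages, was the clearest difference, with 3.44, 0.231 and 0.297 CPM against 37.5, 11.3, 14.7 and 37.7 CPM (log2 fold change -4.29 ± 1.03, edgeR adjusted p = 0.0024). In controls 9 of the 16 were higher in HGS2, 3 without the second 60577 control, and 1 lower. Of 10 dendritic cell genes 1 was higher and 1 lower, with 4 lower without HGS2 replicate 2 and none without replicate 3 or 4. Of 13 genes of neutrophils and immature myeloid cells 3 were higher and none lower, with 1 higher without HGS2 replicate 3. Ly6g, which defines mouse neutrophils, did not pass the filter on low counts, and S100a8 was at 1.24, 1.48 and 1.26 CPM against 0.433, 0.399, 0.68 and 0.635 CPM.

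Genes of lymphocytes were uneven among the HGS2 tumours. For the T cell list the sums were 380, 60.3 and 97.6 CPM in HGS2 and 312, 328, 313 and 371 CPM in 60577, so HGS2 replicate 2 had as much as any 60577 tumour and replicates 3 and 4 much less. HGS2 replicate 1 had 625 CPM, more than any of the 7. Of 17 members none was called higher and 1 lower (Il7r), but 10 were lower without replicate 2 and none with replicate 1 added. Cd3e, a chain of the T cell receptor complex, was at 21.1, 1.04 and 5.43 CPM against 25.4, 24.3, 23.6 and 31.2 CPM (log2 fold change -1.52 ± 0.78, edgeR adjusted p = 0.14), and its change was -3.05 without replicate 2 (edgeR adjusted p = 0.0118). Il7r, the interleukin-7 receptor of naive and memory T cells, was at 16.7, 2.19 and 8.47 CPM against 28.3, 34.1, 32.4 and 34.7 CPM (log2 fold change -1.84 ± 0.51, edgeR adjusted p = 0.0073). Of 11 cytotoxic and Th1 genes tested 1 was lower, Cxcr6, a chemokine receptor of resident T cells (log2 fold change -2.66 ± 0.72, edgeR adjusted p = 0.0064), and 3 were lower without HGS2 replicate 2.

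Of 16 regulatory T cell and checkpoint genes tested 8 were called lower and 1 higher (median -1.49). Foxp3, the transcription factor that defines regulatory T cells, was at 6.21, 0.485 and 2.71 CPM against 20.0, 17.3, 12.3 and 16.1 CPM (log2 fold change -2.40 ± 0.70, edgeR adjusted p = 0.01). Without HGS2 replicate 3 its change was -1.88 (edgeR adjusted p = 0.0576). Il2ra, the high-affinity interleukin-2 receptor chain, was lower by 2.35 ± 0.61 (edgeR adjusted p = 0.0048) and Ccr4, a chemokine receptor of these cells, by 3.15 ± 0.78 (edgeR adjusted p = 0.0032). Havcr2, the checkpoint receptor TIM-3, which myeloid cells also carry, was the member called higher, by 1.44 ± 0.38 (edgeR adjusted p = 0.0048). The lower calls numbered 10 without HGS2 replicate 2, 2 without replicate 3 and 5 without replicate 4.

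None of 16 B cell genes was called (median -1.36). Their sums were 678, 54.2 and 241 CPM in HGS2 and 800, 895, 839 and 765 CPM in 60577, and without HGS2 replicate 2, the highest of its group, 4 were lower. HGS2 replicate 1 had 1717 CPM. The most abundant member of the list at TP3 was Ciita, which is also on the MHC class II list. Of 15 plasma cell and immunoglobulin genes 2 were called higher and none lower, but the median was -1.46 and the sums were lower in HGS2, at 1846, 853 and 3919 CPM against 4835, 4015, 6870 and 4824 CPM, without overlap. HGS2 replicate 1 had 13051 CPM. Near-identical segments and strain alleles can share these reads. Of 10 genes of lymphoid aggregates 1 was higher and 1 lower, with 4 lower without HGS2 replicate 2 and none higher without replicate 2 or 3. The lower one was Cxcl13, the chemokine that draws B cells to milky spots, at 7.83, 11.3 and 15.8 CPM against 113, 75.0, 74.0 and 97.5 CPM (log2 fold change -2.94 ± 0.83, edgeR adjusted p = 0.0084). In controls the B cell list leaned the other way, with 6 of 16 higher in HGS2 (none without the third HGS2 control, 11 without the second) and none lower, and the change between the comparisons was called negative for 5 and positive for none. That 5 became 14 without HGS2 treated replicate 2 and 1 without the third HGS2 control or with HGS2 replicate 1 added.

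Antigen presentation genes held few calls. Of 10 MHC class II genes 1 was higher and 1 lower, and of 12 MHC class I genes none was higher and 1 lower. Class I and II genes are highly variable between C57BL/6J and FVB mice, and reads of an allele unlike the reference can be lost, so strain and model cannot be told apart in H2-Eb1 (393, 182 and 531 CPM against 16.3, 14.1, 14.3 and 18.5 CPM) or in H2-D1, which was lower by 1.30 ± 0.33 (edgeR adjusted p = 0.0037). Of 20 interferon-stimulated genes 5 were higher and 1 lower (median 1.21), above the background of 8.65%. None was higher without HGS2 replicate 2, and 1 was higher with the replicate number as a block. Their sums were 1288, 345 and 514 CPM against 971, 477, 484 and 866 CPM, and overlapped. Of 17 strain-linked genes, chosen as likely to differ between inbred strains, 4 were higher and 3 lower at TP3 (6 lower without HGS2 replicate 2) and 8 were higher (5 without the second 60577 control) and 2 lower in controls. Trim12a, an antiviral gene of a variable cluster, was at 33.4, 8.73 and 17.5 CPM in HGS2 and at 0.0361 CPM or 0 in 60577, and it was also at 20.3 CPM in HGS2 controls and at 0 in 60577 controls. Ifi202b, an interferon-inducible DNA-binding protein, was at 0.29, 1.06 and 0.0743 CPM against 35.6, 32.6, 28.3 and 30.9 CPM.

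Epithelial markers were mixed at TP3. Of 13 tested 3 were higher and 1 lower (median 0.06). The groups did not overlap in 6 of the 13, near the share of 40.7% over all genes. The sums were 304, 503 and 364 CPM in HGS2 and 394, 337, 467 and 521 CPM in 60577. In controls 1 was higher (none without the second 60577 control) and 5 were lower in HGS2 (3 without the fourth HGS2 control). The sums there were 782 ± 319 and 2610 ± 487 CPM. Muc16, the most abundant member at TP3, and Krt19 are also on the mesothelial list. Krt8 was at 28.9, 18.5 and 33.3 CPM against 38.7, 40.9, 48.8 and 49.9 CPM and was not called, whereas its means in controls were 86.0 CPM in HGS2 and 529 CPM in 60577. Epcam, the adhesion molecule by which carcinoma cells are recognised, was at 6.96, 1.82 and 1.30 CPM against 10.1, 7.32, 7.48 and 8.29 CPM, so it was low in both groups. Cdh1, E-cadherin, was higher in HGS2, with 50.6, 40.4 and 14.7 CPM against 7.32, 8.69, 7.38 and 7.62 CPM (log2 fold change 2.18 ± 0.63, edgeR adjusted p = 0.01). The other higher calls were Muc1, a mucin, at 26.5, 1.25 and 1.75 CPM against 0.793, 0.599, 0.55 and 0.696 CPM, and Spint1, a protease inhibitor of epithelia, at 18.1, 2.86 and 2.97 CPM against 0.216, 0.3, 0.68 and 0.605 CPM. Both were highest in HGS2 replicate 2, the tumour with pancreatic RNA, as were Cdh1, Epcam, Cldn3 and Prom1 among the HGS2 tumours. Without it the log2 fold change of Muc1 fell from 3.88 to 1.16 (edgeR adjusted p = 0.433) and that of Spint1 from 4.12 to 2.67 (edgeR adjusted p = 0.0211). That of Cdh1 fell from 2.18 to 1.83 (edgeR adjusted p = 0.0419). The lower call was Sox17, a transcription factor also of endothelium (log2 fold change -1.98 ± 0.66, edgeR adjusted p = 0.024). It was lost without HGS2 replicate 3 or 4, although the change without replicate 3 was -2.15 (edgeR adjusted p = 0.0546). Pax8, a marker of the Müllerian lineage, did not pass the filter on low counts.

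Of 10 regulators of the epithelial to mesenchymal transition 5 were higher and none lower (median 1.35). In controls 5 were also higher in HGS2 and none lower (median 0.885). The difference at TP3 minus that in controls was called positive for 1 of the 10 and negative for 2 (median -0.34). The negative calls numbered 4 without HGS2 treated replicate 4 and 1 without the fourth HGS2 control. Cdh2, N-cadherin, was at 99.0, 245 and 129 CPM in HGS2 and at 24.1, 28.3, 33.98 and 22.96 CPM in 60577, without overlap (log2 fold change 2.53 ± 0.32, edgeR adjusted p = 2.1e-06), and the difference was larger than in controls by 2.04 ± 0.45 (edgeR adjusted p = 0.0034). Of 14 tumour driver genes 6 were higher and none lower (median 0.64). Ccnd1, cyclin D1, was at 148, 201 and 172 CPM against 57.5, 57.3, 48.5 and 59.2 CPM (log2 fold change 1.64 ± 0.31, edgeR adjusted p = 0.00022), Brca1, which repairs broken DNA and is made mostly in dividing cells, was higher by 2.14 ± 0.30 (edgeR adjusted p = 9e-06), and Cdkn2a, which encodes the brakes p16 and p19Arf, by 1.25 ± 0.31 (edgeR adjusted p = 0.0035). Trp53 was at 36.0, 16.6 and 22.9 CPM against 40.5, 44.2, 38.8 and 44.0 CPM and was not called (log2 fold change -0.74 ± 0.31, edgeR adjusted p = 0.072), though it was lower by 1.09 without HGS2 replicate 2 (edgeR adjusted p = 0.0155). Of 16 p53 targets 1 was higher and 2 lower. Eda2r, a receptor of the ectodysplasin family induced by p53, was at 2.61, 0.97 and 3.20 CPM against 28.9, 21.2, 27.5 and 33.5 CPM (log2 fold change -3.63 ± 0.64, edgeR adjusted p = 0.00011).

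The drugs given are exported by some transporters, and paclitaxel binds beta-tubulin. Of 17 genes of drug transport and microtubules 2 were higher and 2 lower, near the background. Abcb1a, the pump P-glycoprotein, which exports paclitaxel, was lower in HGS2, with 7.08, 6.60 and 4.46 CPM against 24.9, 21.97, 18.8 and 24.1 CPM (log2 fold change -1.89 ± 0.49, edgeR adjusted p = 0.0042), and was also lower in HGS2 controls by 1.56 ± 0.46 on the log2 scale (edgeR adjusted p = 0.011). Tubb3, the beta-tubulin of neurons and of some carcinomas, was at 22.5, 32.4 and 54.7 CPM against 0.397, 1.43, 0.68 and 0.514 CPM. The groups lay far apart (log2 fold change 5.59 ± 0.70, edgeR adjusted p = 1.7e-06), and it was higher in controls too by 2.77 ± 0.66 (edgeR adjusted p = 0.0022).

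Markers of other cells that the tumours could hold gave few calls. Of 8 smooth muscle and pericyte genes 1 was higher and 1 lower, the latter Myh11, smooth muscle myosin, at 36.1, 9.56 and 9.33 CPM against 182, 185, 179 and 144 CPM (log2 fold change -3.24 ± 0.84, edgeR adjusted p = 0.0046). Of 16 endothelial genes 2 were higher and none lower, and of 11 mesothelial genes 1 was higher, Upk1b, a uroplakin, at 186, 329 and 236 CPM against 25.6, 33.6, 46.0 and 44.3 CPM. The pancreatic acinar list had 4 of 19 genes called higher (median 7.06), all resting on HGS2 replicate 2: the sums were 102721, 86.7 and 420 CPM in HGS2 and 216, 96.4, 606 and 93.5 CPM in 60577, and none was called without that tumour. Try4, a trypsin with near-identical copies, was at 4161, 1.18 and 27.5 CPM against at most 0.582 CPM, and its adjusted p was 0.131 without replicate 2 against 0.013 with it. Among HGS2 controls the list also varied widely, with a mean sum of 50881 CPM and an SD of 100150 CPM (n = 4). Replicate 2 of these controls held nearly all of it, with sums of 15.7, 201097, 11.9 and 2399 CPM in replicates 1 to 4. Of 5 tested genes of other organs 1 was higher.

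Some of the largest differences were shared with untreated tumours. Tnmd, tenomodulin, a membrane protein of tendon and fat, was at 51.1, 30.1 and 32.1 CPM in HGS2 and at most 0.0605 CPM in 60577, and its control means were 9.89 and 0.0137 CPM. Gdf2, the circulating factor BMP9, was at 25.1, 38.7 and 9.996 CPM against at most 0.129 CPM, with control means of 12.5 and 0.0219 CPM. Nos1, neuronal nitric oxide synthase, was lower in HGS2 in both, with 1.12, 3.16 and 0.186 CPM against 35.8, 30.8, 25.7 and 22.1 CPM at TP3 and control means of 0.301 and 154 CPM. Its difference was therefore smaller at TP3, by 4.79 ± 0.67 on the log2 scale (edgeR adjusted p = 0.00011), or 3.52 without HGS2 replicate 3.

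The cell lines grown in monoculture, 2 libraries of each, gave the level of the same genes without host tissue. Of 13742 genes tested 1037 (7.55%) were higher in HGS2 cells and 1152 (8.38%) lower, 2189 in all. That number was 503 without the second and 783 without the first culture of 60577, and 3521 without the second of HGS2. Col1a1 was at 13409 and 7257 CPM in HGS2 cells and at 789 and 229 CPM in 60577 cells, and Lox at 3599 and 1612 CPM against 321 and 138 CPM, both called higher (edgeR adjusted p = 0.02 for each). The cultures thus differed in the same direction as the tumours for these genes. Krt8 was at 76.3 and 158 CPM in HGS2 cells and at 1205 and 1140 CPM in 60577 cells (log2 fold change -3.32 ± 0.42, edgeR adjusted p = 0.0089). Mki67 was at 234 and 546 CPM in HGS2 cells and at 584 and 451 CPM in 60577 cells, where the groups overlapped (edgeR adjusted p = 0.54). Ctsk was at 0.472 and 0.486 CPM in HGS2 cells and Fabp4 at no more than 0.438 CPM in any culture, so the cultured cells held little of either.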

How the data were processed

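RNA of whole omental tumours and of cultured cells was sequenced after depletion of ribosomal RNA in strand-specific paired-end libraries. According to the submitters' processing notes and the study's methods, the authors trimmed reads with Trim Galore 0.6.5, aligned them with STAR 2.7.0f to mm10 (GRCm38) and estimated gene counts with RSEM, and the deposited values are these expected counts, not normalized. They were rounded to whole numbers. Symbols and coordinates came from GENCODE M21 (GRCm38), in which 55227 of 55487 gene IDs were found, and promoters from RefSeq (GRCm38.p6).

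Genes that reached 1 CPM in a minimum of 25% of libraries entered the tests (16241 in tumours, 13742 in cell lines). The edgeR quasi-likelihood test (edgeR 4.0.16, R 4.3.3, TMM scaling, two-sided) was fitted to all 10 tumour groups together, 33 of the 34 tumours, without HGS2 TP3 replicate 1, and the cell lines were fitted apart. The threshold for a call was a Benjamini-Hochberg adjusted p under 0.05 with a log2 fold change past 1 in either direction. SE is the absolute fold change divided by the square root of F. The study describes replicate tumours as those of individual mice. For the cell lines the sources used here do not say whether the cultures were grown apart, so there p-values measure the spread between these libraries, which may be technical. Total counts were 17839635 to 49299442 a tumour. No 2 tumours of a TP3 group were copies: the chi-square per degree of freedom of their counts was at least 18.8.

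The genes named are members of the 36 gene lists, genes that the study names for its matrix, the 5 protein-coding genes with the largest share of counts in each TP3 tumour, and the 10 protein-coding genes with the largest change in each direction in each comparison of tumours, among called genes whose groups do not overlap and whose higher group has a mean of at least 5 CPM. Predicted genes and immunoglobulin or T cell receptor segments were left out of that choice. Slc16a3 is named outside these rules, and the bone matrix genes were chosen after their values were seen. Some genes are on more than 1 list and are counted in each. The tumours compared, the lists and the tests were chosen with earlier results of these data known, so they are no independent support for them. Scripts were tested on simulated counts. Alternatives were the DESeq2 Wald test and size factors (DESeq2 1.42.0), limma-voom (limma 3.58.1), other filters on low counts, the replicate number as a block, a length and GC offset, a pancreatic acinar covariate, a fit of the compared groups alone, TP1 and TP2 controls together, replicate 1 of HGS2 added, and each tumour left out in turn. The distance test was repeated with another prior count, the 2000 most variable genes, rank correlation and all genes.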

Additional observations from a re-analysis of the deposited data

Results flagged for a closer look

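The difference between the models changed between untreated and treated tumours for 2016 genes, by the test of the change itself. On the log2 scale, the difference at TP3 minus that in TP2 controls was positive in genes of proliferation and hypoxia: Mki67 (2.07), Top2a (2.67), Mcm6 (2.88), Car9 (4.26), Pgk1 (3.16) and Vegfa (2.85). It was also positive for Timp1 (3.22), Spp1 (7.45), Cdh2 (2.04), Lox (1.47) and Nos1 (4.79). Without HGS2 replicate 3 the change of Spp1 was 5.62 and that of Nos1 3.52. That of Lox was then 1.56, no smaller than before, but it did not pass (edgeR adjusted p = 0.0592). The difference fell in genes of fat cells, namely Scd1 (-6.13), Adipoq (-9.11), Lep (-8.91) and Thrsp (-9.37), and in Nnat (-9.14), Dpt (-4.70) and C4b (-2.32). With HGS2 replicate 1 added, the change was no longer called for Lep (edgeR adjusted p = 0.0948), Thrsp (edgeR adjusted p = 0.24) and C4b (edgeR adjusted p = 0.149), nor for Lox (edgeR adjusted p = 0.159).

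Among the 4 60577 tumours at TP3, 9 of the 132 values examined had 1 tumour apart from the other 3, where chance alone gives about 1 in 20. The rule was Dixon's ratio of the gap to the range of the log2 values. A small departure can pass it where the other 3 lie close together. Replicate 2 had the largest sum of drug transport and microtubule genes, 1988 CPM. Replicate 3 had the lowest Scd1 (3812 CPM) and Ccnd1 (48.5 CPM). Replicate 4 had the lowest Bnip3 (67.1 CPM), Spp1 (6.44 CPM), Nnat (110.9 CPM) and Myh11 (144 CPM). Replicate 1 had the lowest Fabp5 (53.06 CPM). Trim12a was at 0.0361 CPM, a single count, in replicate 1 and at 0 in the others.

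HGS2 replicate 1 at TP3, which is outside the comparison, held RNA of bone matrix. Ibsp was at 1221 CPM, Bglap (osteocalcin) at 295 CPM, Dmp1 at 373 CPM, Phex, an osteocyte peptidase, at 123 CPM and Sost (sclerostin) at 69.7 CPM. The highest values of the same genes in HGS2 TP2 controls were 14.2, 0.152, 0.736, 0.726 and 0.116 CPM.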

How the results depend on the processing

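The models differed at TP3 in 2185 genes without HGS2 replicate 3 to 3203 without replicate 2, and in 2273 to 3401 genes under the other settings. Of the calls 54% were higher in HGS2, against 40.1% of 3057 with limma-voom. The change between controls and TP3 was called for 3062 genes with TP1 and TP2 controls together, and for 1295 (without 60577 control replicate 2) to 2772 (without HGS2 treated replicate 2) when 1 tumour was left out, where the main number was 2016. The cell lines gave 3849 calls without a filter on low counts and 503 to 3521 with 1 culture left out (main 2189). The mean distance between models exceeded that within models by 0.098 to 0.131 with 1 tumour left out, where the smaller design cannot reach 0.05. This excess was 0.0301 to 0.521 under the other settings, each at the smallest p. Of 115 gene results under these alternatives, 2142 of 2219 values kept their direction and side of the threshold, 66 lost and 9 gained the call, and 2 reversed, both without HGS2 replicate 3, which held most of their counts: Col11a2 ranged from -0.066 to 7.624 and Loxl4 from -0.20 to 3.32 with 1 tumour left out. With replicate 1 added, Adipoq, Dgat2, Thrsp, Cdh1, C2, Il7r, Cxcr6, H2-D1, Myh11, Sox17, Gpnmb and Fabp5 lost the call at TP3, and Lep (-5.92), Thrsp (-4.27), C4b (-1.59) and Lox (1.19) that of the change. The cause was not tested.

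The replicate numbers that groups share did not pair the tumours: the deviations of same-numbered HGS2 and 60577 tumours correlated at -0.028, -0.131 and -0.016. With the replicate number as a block, 2588 genes were called at TP3, 2519 in controls, 1820 for the change and 2237 in the cell lines. The named calls lost were Try4, Gpnmb and Fabp5 at TP3 and Lox for the change (1.485, edgeR adjusted p = 0.0504). The higher calls at TP3 fell from 5 to 1 in the interferon-stimulated list and from 4 to 0 in the pancreatic acinar list.

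The 3 HGS2 tumours against 4 of 60577 limit every comparison. The HGS2 tumours vary more than the 60577 tumours, and values under about 1 CPM rest on few reads at these depths. RNA of pancreas was high in 1 HGS2 tumour and RNA of bone in another of the 3. Pancreas RNA was also high in HGS2 TP2 control replicate 2, at 201097 CPM, which is part of the comparisons with controls.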

Other observations

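Nnt, a mitochondrial transhydrogenase whose gene is partly deleted in C57BL/6J mice, was at 30.5, 33.5 and 33.5 CPM in HGS2 replicates 2, 3 and 4 at TP3, at 56.8, 54.3, 60.8 and 58.8 CPM in the 60577 tumours, and at 5.24 CPM in HGS2 replicate 1. The HGS2 cell line held 79.5 and 75.4 CPM. A second gene ID of that name spans nearly the same interval, so these values are uncertain, and strain and tumour cell share cannot be told apart in them.

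Ibsp also passed 10 CPM in tumours away from TP3, at 209 CPM in the HGS2 tumour labelled TP1 treated replicate 2, 21.6 CPM in TP1 control replicate 2 and 14.2 CPM in TP2 control replicate 4, all of HGS2.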
